A study of Mus musculus with 6 samples.

Results

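Ribosomal proteins of the cytosol were followed through 80 genes in macrophages sorted from the cerebrospinal fluid of mice with tumor growth in the leptomeninges, the membranes around the brain and spinal cord. The genes were chosen by name: every symbol made of Rps or Rpl and a number, with or without an a, x, l or y at its end, the stalk genes Rplp0, Rplp1 and Rplp2, and Rpsa. Of 34652 genes in the expression table, 81 matched. Rps4l was left out because RefSeq lists it as a transcribed pseudogene, which left 49 genes of the large and 31 of the small subunit. The set held 76 core genes and 4 paralogs of them, Rps27l, Rpl39l, Rpl3l and Rpl10l. The core proteins Rps3a1 and Fau have names outside the pattern and are given apart.

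The libraries were bulk RNA-seq of sorted cells, 3 of dLAM, labelled resident macrophage, and 3 of Mono-macrophage, labelled monocyte-macrophage. All mice were Cx3cr1CreER:mTmG, treated with tamoxifen, and had been given LLC-LeptoM cells, derived from Lewis lung carcinoma, 12 days earlier. In them a tamoxifen-activated Cre, driven by Cx3cr1, turns a membrane reporter green, and Cx3cr1 is a gene that monocytes also use. The dLAM gate was CD45+CD11b+F4/80+Ly6C-GFP+. The Mono-macrophage libraries mixed a gate of CD45+CD11b+F4/80+GFP- cells with a gate of F4/80lowLy6C+GFP- cells. No label says whether the libraries of a group came from separate mice or from pools, so the p-values below speak only of the spread among these libraries, part of which may be technical.

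A ribosome has a small subunit, which holds and decodes the mRNA, and a large subunit, which joins amino acids and passes the new chain through a tunnel. Each cytosolic subunit is built on ribosomal RNA with 1 copy of most of its proteins, so cells tend to make these proteins in matched amounts. Many of their mRNAs begin with a run of pyrimidines, the 5′ terminal oligopyrimidine or TOP motif, through which the growth kinase mTORC1 controls their translation and the RNA-binding protein Larp1 their translation and stability. Ribosomal protein genes also have many processed pseudogenes and near-identical copies in the mouse genome.

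The starts of a few members are printed to set TOP starts beside starts without one. Each is a window of 30 bases in sense orientation from the RefSeq promoter table on GRCm38.p6, in which letter 16 is the first transcribed base, and capitals mark the longest run of C and T in the window. Rpl35 (chr2:39005117-39005146, minus strand), Rps6 (chr4:86857353-86857382, minus strand) and Rplp2 (chr7:141447636-141447665, plus strand) had a TOP start, taken as C at the first transcribed base followed by at least 4 pyrimidines. Rpl12 (chr2:32961697-32961726, plus strand), Rpl23 (chr11:97782425-97782454, minus strand) and Rps23 (chr13:90923107-90923136, plus strand) rose in dLAM and had none at the annotated base. Rpl39 (chrX:37085208-37085237, minus strand) and Rpl10 (chrX:74270801-74270830, plus strand) had log2 fold changes near 0 and none either. The TOP starts printed all belong to members that rose in dLAM by the test described below, so the windows do not tie the motif to the rise. Of the 12 members tested with a TOP start 5 rose by it, and of the 42 tested without one 10 did. Log2 fold changes of those with a TOP start ran from 0.09 to 0.50.
Rpl35: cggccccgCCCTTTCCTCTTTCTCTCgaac
Rps6: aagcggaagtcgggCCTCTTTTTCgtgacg
Rplp2: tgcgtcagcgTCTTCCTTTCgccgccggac
Rpl12: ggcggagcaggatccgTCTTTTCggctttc
Rpl23: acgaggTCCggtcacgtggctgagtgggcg
Rps23: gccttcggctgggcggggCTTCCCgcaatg
Rpl39: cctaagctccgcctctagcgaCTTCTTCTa
Rpl10: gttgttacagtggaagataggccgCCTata

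The table held a start for 60 of the 80 genes. Of these, 12 (20%) had the TOP start on the sense strand, against 661 of 26965 other genes (2.45%). A run of at least 8 pyrimidines anywhere in the window, which can overlap the TOP start, was present in 40% of the 60 and in 11.8% of the other genes. The annotated base decides the count, as the Rpl12 and Rps23 windows show, where the run lies just downstream of it, so a window without the motif says nothing about how the mRNA begins in these cells.

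Most ribosomal protein genes had higher values in dLAM libraries, and the difference was small for most of them. Expression was deposited as FPKM, fragments scaled to gene length and library total, and was tested with limma on log2(FPKM + 1) over the 11317 genes that reached 1 FPKM in at least 3 of 6 libraries. Of the 80 genes, 74 could be tested, 44 of the large and 30 of the small subunit. By limma, 20 (27.0%) were higher in dLAM at an adjusted p under 0.05 (Benjamini-Hochberg), 14 of the large subunit and 6 of the small. Among all genes tested, 19.9% were higher and 10.6% were lower. In the lower direction 0 of the 74 passed, and 0 were lower at an unadjusted p under 0.05, at which 35 were higher. The share was 20% for the small subunit and 31.8% for the large, and the difference between the subunits was not tested. Rpl23a entered the test through its dLAM libraries alone, and without it 19 of 73 were higher, 13 of 43 in the large subunit. The count rested on single libraries: it was 5, 8 and 9 without dLAM library 1, 2 or 3, where 14.6%, 14.0% and 14.8% of all genes were higher, and 25, 11 and 11 without Mono-macrophage library 1, 2 or 3, where 18.3%, 18.5% and 17.5% were. The share of members called was thus below that of all genes without any 1 dLAM library (6.76%, 10.8% and 12.2%) and without Mono-macrophage library 2 or 3 (14.9% each), and above it without Mono-macrophage library 1 (33.8%). For the large subunit it was 9.09%, 15.9% and 11.4% without dLAM library 1, 2 or 3, and 15.9% with median-of-ratios scaling, where 16.7% of all genes were higher. With all libraries, the share of all members was above that of all genes on a TPM scale (28.4% against 20.2%) and after quantile normalization (39.2% against 15.9%). It was near it with no filter (13.9% against 13%). Whether calls were more frequent among the members than among all genes therefore depended on the setting.

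The direction was more uniform than the calls. Log2 fold changes, dLAM minus Mono-macrophage, were above 0 for 73 of the 74 genes, for 69 with median-of-ratios scaling and for 68 after quantile normalization, against 56.9% of all genes tested in the values as deposited. Their median was 0.31, with a range of -0.17 to 0.94, against a median of 0.06 over all genes. The large subunit genes had a median of 0.34 and a range of 0.01 to 0.94, and the small subunit genes had a median of 0.30 and a range of -0.17 to 0.53. For 38 genes (21 of the large and 17 of the small subunit) all 3 dLAM libraries lay above all 3 Mono-macrophage libraries, and for 0 they lay below. Over all genes tested, 29.3% lay wholly above and 16.9% wholly below. In bulk libraries, fewer cells of a type and less RNA per cell cannot be told apart.

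**Figure D1:**
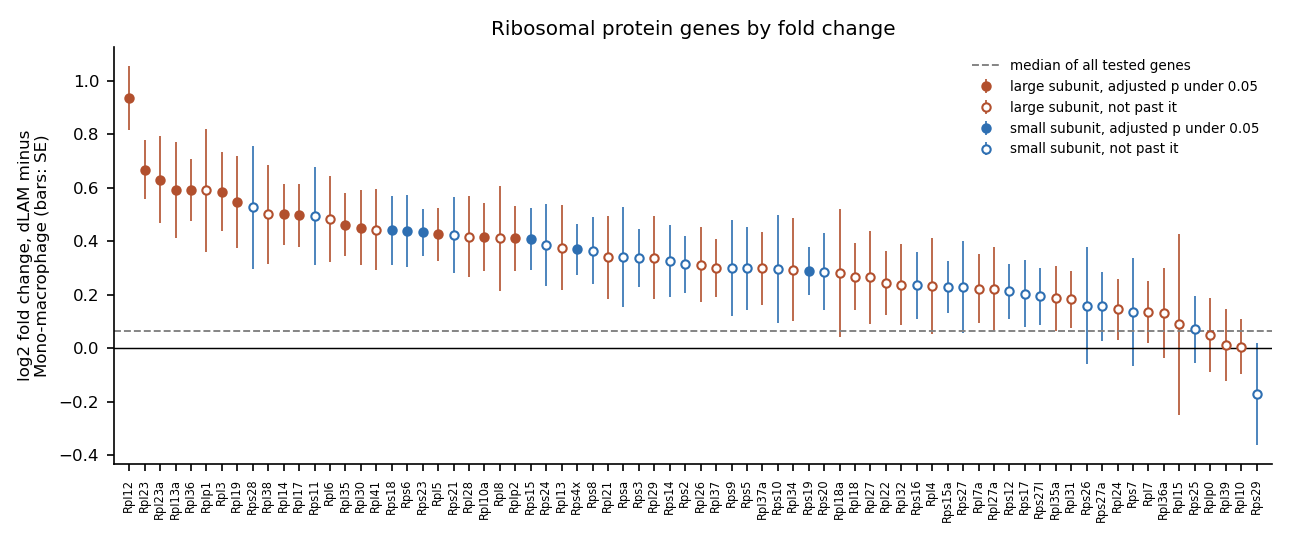
Log2 fold change of the 74 genes tested, dLAM minus Mono-macrophage on the log2(FPKM + 1) scale, in falling order, with bars for the standard error; filled points passed an adjusted p under 0.05 and the dashed line is the median of all genes tested. Rpl12 stands at the left end with 0.94, most genes of both subunits lie between 0.1 and 0.6, and only Rps29 lies below 0 in this scaling. Rpl23a is filled but entered the test through its dLAM libraries alone.

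Summed over the 80 genes, ribosomal proteins made up 5.93%, 5.83% and 5.55% of all FPKM in dLAM libraries 1, 2 and 3, and 4.998%, 4.54% and 3.61% in Mono-macrophage libraries 1, 2 and 3. The groups did not overlap, and Mono-macrophage library 3 was lowest. The means were 5.77% ± 0.199 in dLAM and 4.38% ± 0.710 in Mono-macrophage (SD, n = 3 each), a ratio of 1.32, and the Mono-macrophage mean was 4.77% without its library 3. In that library Rpph1, an RNA of ribonuclease P, took 15.8% of the sum, more than in any other. With Rpph1 taken out of the sum the means were 6.38% ± 0.235 in dLAM and 4.93% ± 0.598 in Mono-macrophage.

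**Figure D2:**
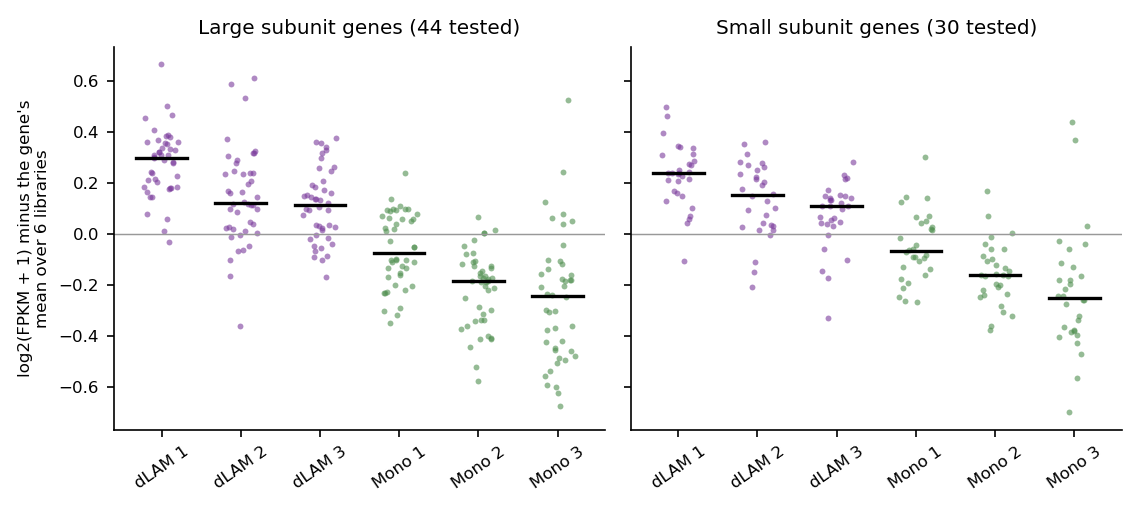
Deviation of each tested gene from its own mean over the 6 libraries, in log2(FPKM + 1), by library, for large subunit genes (left) and small subunit genes (right); each point is a gene and each bar the median. The medians over both subunits were 0.26, 0.14 and 0.11 in dLAM libraries 1, 2 and 3 and -0.07, -0.17 and -0.25 in Mono-macrophage libraries 1, 2 and 3, and the points of neighbouring libraries overlap. With median-of-ratios scaling, which is not drawn, the medians were 0.25, 0.10 and 0.027 in dLAM and 0.014, -0.17 and -0.21 in Mono-macrophage. In that scaling dLAM library 3 and Mono-macrophage library 1 were nearly equal.

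The balance of the subunits differed little. The summed FPKM of large subunit genes was 1.59, 1.73 and 1.56 times that of small subunit genes in the dLAM libraries, and 1.55, 1.51 and 1.496 times in the Mono-macrophage libraries, in the order of the library numbers. All 3 dLAM ratios lay above the Mono-macrophage ratios, with dLAM library 3 and Mono-macrophage library 1 next to each other. The ratio rested on a few genes, since the 5 most abundant members held 43.5% of the summed FPKM and the 20 most abundant held 81.3%. Without Rplp1 the ratios were 1.33, 1.39 and 1.35 in dLAM and 1.33, 1.31 and 1.26 in Mono-macrophage, and the groups overlapped. Without the 5 members at 1000 FPKM or more, the ratios were 1.55, 1.56 and 1.59 in dLAM and 1.69, 1.61 and 1.51 in Mono-macrophage, and the mean difference was -0.04. Both of these sums were added after the values were seen.

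Most core proteins enter the ribosome in 1 copy, but the listed levels of the core genes spread over more than 3 orders of magnitude. By their mean over the 6 libraries, 5 of the 80 genes stood at 1000 FPKM or more (Rps26, Rpl8, Rpsa, Rpl13a and Rplp1), 27 at 100 to 1000, 27 at 10 to 100, 15 at 1 to 10 and 5 above 0 but under 1, and Rpl10l was listed at 0 in every library. Rpl9, Rps13, Rpl11, Rpl3l and Rpl39l were those under 1 FPKM, and with Rpl10l they were the 6 genes not tested. Genes named in this paragraph and the next, other than those of the naming rule, were chosen after their values were seen.

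The low core genes tended to be those with copies elsewhere. For each gene, the share of 100-base windows of its main GENCODE M21 transcript that occur letter for letter in transcripts of other genes was taken as a measure of shared sequence. Core genes with under 10% of windows shared had a median of 119 FPKM (11 genes), those with 10% to 50% had 90.4 FPKM (40 genes), and those with 50% or more had 28.7 FPKM (25 genes). Across the 76 core genes, Spearman's rho between shared sequence and mean FPKM was -0.40, a description over genes that share libraries and annotation. Rps27 had 98.4% of its windows in other transcripts and was listed at 1.76 FPKM in dLAM and 1.37 FPKM in Mono-macrophage, while its copy Rps27rt was listed at 263 and 226 FPKM. Likewise Rpl9 was listed at 0.798 FPKM in dLAM and 0.761 FPKM in Mono-macrophage, and the pseudogene Rpl9-ps6 at 110 and 113 FPKM. Rpl23a stood at 1.78 FPKM in dLAM and 0.779 FPKM in Mono-macrophage, and Rpl23a-ps3 at 967 and 840 FPKM. How reads with several matches were counted is not given in the sources used here, so the listed levels of such genes are uncertain.

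**Figure D3:**
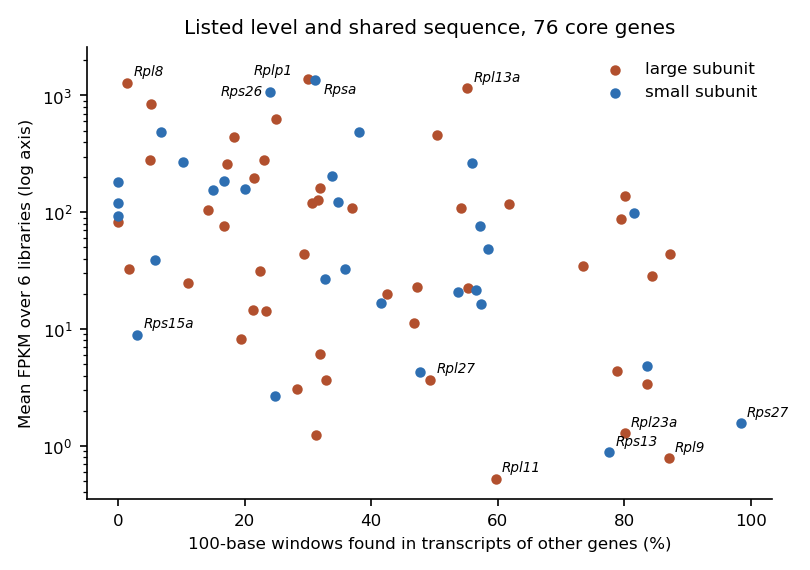
Mean FPKM over the 6 libraries (log axis) against the percent of 100-base windows of the main transcript found in transcripts of other genes, for 76 core genes, with large subunit genes in red and small subunit genes in blue. Rps27, Rpl9, Rps13 and Rpl23a combine much shared sequence with listed levels near 1 FPKM, while Rpl13a is listed above 1000 FPKM with 55.2% of its windows shared.

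The log2 fold change did not follow shared sequence in the same way, but every call fell on a member with at least 10% of its windows shared. Among the called members the share ran from 10.2% for Rps15 and 17.2% for Rplp2 to 79.4% for Rpl3 and 87.1% for Rpl10a. Between the share of windows and the log2 fold change, Spearman's rho was 0.11 over the 74 genes tested. The median log2 fold change was 0.26 with under 10% of windows shared (12 genes, 0 called), 0.32 with 10% to 50% (40 genes, 12 called) and 0.35 with 50% or more (22 genes, 8 called). The last 8 include Rpl23a, which entered the test through its dLAM libraries alone. Rows named as pseudogenes of these genes numbered 21, of which 10 could be tested. By limma 0 of them passed in either direction, and their median log2 fold change was 0.17 with 6 above 0.

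The stalk is the arm of the large subunit that recruits the translation factors, and of its proteins Rpl12 and Rplp2 passed while Rplp0 and Rplp1 did not. Rpl12, at the stalk base (gene at chr2:32961559-32965345), had 14.99, 16.7 and 13.5 FPKM in the dLAM libraries and 8.27, 6.76 and 7.14 FPKM in the Mono-macrophage libraries, in the order of the library numbers as in all such lists below. Every dLAM value was above every Mono-macrophage value, and the means were 15.1 ± 1.57 and 7.39 ± 0.786 FPKM (SD, n = 3 each). The log2 fold change was 0.94 ± 0.12 (SE; limma, adjusted p = 0.0010), the largest among the 74, and the ratio of means 2.04. Rplp2, an acidic stalk protein, had 310, 286 and 287 FPKM in dLAM and 236, 233 and 196 FPKM in Mono-macrophage, with no overlap. Its log2 fold change was 0.41 ± 0.12 (limma, adjusted p = 0.039). Rplp1, the partner of Rplp2 in the stalk, had 1751, 2015 and 1258 FPKM in dLAM and 1221, 985 and 1081 FPKM in Mono-macrophage. The groups did not overlap, but dLAM library 3 was far below the other two, and the log2 fold change of 0.59 ± 0.23 did not pass (limma, adjusted p = 0.094). Rplp0, which anchors Rplp1 and Rplp2 to the ribosome, had 455, 474 and 407 FPKM in dLAM and 481, 406 and 407 FPKM in Mono-macrophage. Those values overlapped, with a log2 fold change of 0.05 ± 0.14 (limma, adjusted p = 0.83).

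Among other large subunit members picked by the naming rule, Rpl23 and Rpl3 rose and Rpl10 did not pass. Members of a region of the subunit were not compared as a set. Rpl23, on the face of the large subunit that meets the small one (gene at chr11:97777527-97782437), had 17.8, 17.0 and 17.8 FPKM in dLAM and 10.6, 12.1 and 9.50 FPKM in Mono-macrophage. The groups lay apart, with a log2 fold change of 0.67 ± 0.11 (limma, adjusted p = 0.0033) and a ratio of means of 1.64. Rpl23a, a protein at the tunnel exit, had 1.88, 2.20 and 1.26 FPKM in dLAM and 0.884, 0.659 and 0.795 FPKM in Mono-macrophage. As it reached 1 FPKM in dLAM libraries alone, on between 8 and 24 estimated reads per library, its log2 fold change of 0.63 ± 0.16 is given as a description, with no test. Rpl3, which reaches into the catalytic centre, had 110, 95.1 and 110 FPKM in dLAM and 79.4, 74.7 and 56.0 FPKM in Mono-macrophage, with no overlap. Its log2 fold change was 0.59 ± 0.15 (limma, adjusted p = 0.021). Rpl10, one of the last proteins to join the large subunit, had 32.2, 27.3 and 26.9 FPKM in dLAM and 29.9, 28.2 and 27.8 FPKM in Mono-macrophage. These overlapped, with a log2 fold change of 0.01 ± 0.10 (limma, adjusted p = 0.98).

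Rpl36, a large subunit protein that bacteria lack (gene at chr17:56613416-56614243), had 30.3, 23.7 and 27.5 FPKM in dLAM and 18.4, 16.2 and 18.3 FPKM in Mono-macrophage. No values overlapped, and the log2 fold change was 0.59 ± 0.12 (limma, adjusted p = 0.0075). Rpl13a, which in human monocytic cells also leaves the ribosome to silence inflammatory mRNAs, had 1460, 1416 and 1313 FPKM in dLAM and 1057, 930 and 805 FPKM in Mono-macrophage. It too was higher in each dLAM library, with a log2 fold change of 0.59 ± 0.18 (limma, adjusted p = 0.041). Rpl10a, of the arm that releases the used tRNA, had 51.5, 51.6 and 48.3 FPKM in dLAM and 44.3, 37.2 and 32.2 FPKM in Mono-macrophage. Its groups did not overlap either, with a log2 fold change of 0.42 ± 0.13 (limma, adjusted p = 0.042).

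Rpl5 and Rpl11 bind 5S ribosomal RNA and, when free of the ribosome, the p53 ligase Mdm2. Rpl5 had 28.1, 25.4 and 25.2 FPKM in dLAM and 20.9, 18.1 and 18.9 FPKM in Mono-macrophage, with no overlap. The log2 fold change was 0.43 ± 0.10 (limma, adjusted p = 0.014). Rpl11 was listed at 0.491, 0.644 and 0.939 FPKM in dLAM and 0.434, 0.344 and 0.284 FPKM in Mono-macrophage, which came to between 13 and 31 estimated reads and was not tested. Rpl38, needed in mouse embryos for translation of Hox mRNAs, had 201, 159 and 204 FPKM in dLAM and 151, 149 and 101 FPKM in Mono-macrophage. Those groups lay apart without passing, at a log2 fold change of 0.50 ± 0.19 (limma, adjusted p = 0.079). Rpl22, which mice need for αβ T cell development, had 103, 78.6 and 88.5 FPKM in dLAM and 79.2, 72.6 and 74.6 FPKM in Mono-macrophage. Its values overlapped at a log2 fold change of 0.24 ± 0.12 (limma, adjusted p = 0.17).

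**Figure D4:**
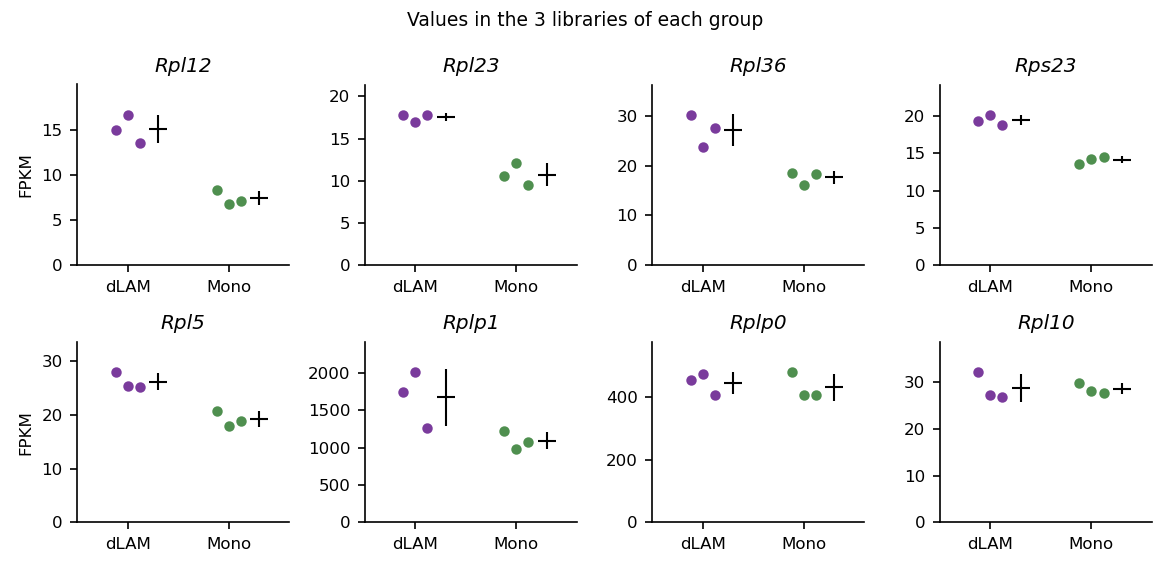
FPKM of 8 members in each library (points), with the mean and SD beside them (cross), for dLAM on the left and Mono-macrophage (Mono) on the right of each panel, each panel with its own axis from 0. Rpl12, Rpl23, Rpl36, Rps23, Rpl5 and Rplp1 show no overlap between the groups, while Rplp0 and Rpl10 do.

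In the small subunit 0.44 was the highest log2 fold change that passed. Rps23, of the decoding centre (gene at chr13:90922958-90924950), had 19.3, 20.2 and 18.9 FPKM in dLAM and 13.6, 14.3 and 14.5 FPKM in Mono-macrophage. It is given because it passed under every setting tried, and so was chosen after its values were seen. The groups did not overlap and varied little within themselves, with a log2 fold change of 0.43 ± 0.09 (limma, adjusted p = 0.0084). Rps6, the target of the S6 kinases, had 5.74, 6.33 and 4.93 FPKM in dLAM and 4.38, 3.395 and 3.98 FPKM in Mono-macrophage, with no overlap. It had a log2 fold change of 0.44 ± 0.13 (limma, adjusted p = 0.044) and 83.6% of its windows in other transcripts. Rps15, in the head of the subunit, had 318, 320 and 276 FPKM in dLAM and 236, 217 and 235 FPKM in Mono-macrophage. No values overlapped, with a log2 fold change of 0.41 ± 0.12 (limma, adjusted p = 0.034).

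Rps4x, the X-linked form of a protein that human cells also encode on the Y chromosome, had 146, 136 and 136 FPKM in dLAM and 112, 109 and 102 FPKM in Mono-macrophage. The groups lay apart, with a log2 fold change of 0.37 ± 0.10 (limma, adjusted p = 0.023). Rps19, the gene most often mutated in human Diamond-Blackfan anemia, had 31.3, 28.5 and 28.4 FPKM in dLAM and 24.8, 23.6 and 23.2 FPKM in Mono-macrophage. It had the smallest change among those that passed, 0.29 ± 0.09 (limma, adjusted p = 0.044), and passed in no fit with a library left out. Rpsa, known as the precursor of a laminin receptor, had 1558, 1539 and 1452 FPKM in dLAM and 1394, 1156 and 1065 FPKM in Mono-macrophage. Its groups did not overlap, but the log2 fold change of 0.34 ± 0.19 did not pass (limma, adjusted p = 0.22). Rps27a, made as a fusion with ubiquitin, had 24.4, 18.9 and 22.2 FPKM in dLAM and 21.6, 19.6 and 17.2 FPKM in Mono-macrophage. The values overlapped, with a log2 fold change of 0.16 ± 0.13 (limma, adjusted p = 0.41). Rps29, the gene of the 74 with a negative value, had 2.78, 2.67 and 1.89 FPKM in dLAM and 2.40, 2.42 and 3.93 FPKM in Mono-macrophage, which overlapped.

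The other members that passed were Rpl14, Rpl17, Rpl19, Rpl30, Rpl35 and Rps18, with log2 fold changes between 0.44 and 0.55. Of the 20 members that passed, Rpl12, Rpl23, Rpl36 and Rps23 did so under all 16 alternative settings. Rpl14 and Rpl3 failed without dLAM library 1 or 3, Rpl17 without dLAM library 2 or 3, and Rpl5 without dLAM library 1 and with median-of-ratios scaling. Rpl35 failed without dLAM library 1 or 3, with median-of-ratios scaling and with a replicate block. The other 11, among them Rpl13a, Rplp2, Rpl10a, Rps6 and Rps19, passed under between 4 and 10 alternatives and each failed without dLAM library 1. These 11 include Rpl23a, which entered the test through its dLAM libraries alone, so its passing is not read as a call.

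Paralogs were low or did not pass. Rps27l, a p53 target, had 10.1, 9.32 and 10.1 FPKM in dLAM and 7.72, 8.38 and 9.33 FPKM in Mono-macrophage, which overlapped in Mono-macrophage library 3 alone, with a log2 fold change of 0.19 ± 0.11 (limma, adjusted p = 0.22). Rps27 itself had 1.36, 1.94 and 1.98 FPKM in dLAM and 1.11, 1.85 and 1.14 FPKM in Mono-macrophage (log2 fold change 0.23 ± 0.17). Rpl3l, a form of Rpl3 in striated muscle, was listed between 0 and 0.237 FPKM in dLAM and between 0.301 and 0.502 FPKM in Mono-macrophage, at most 12 estimated reads. Rpl39l and Rpl10l, both known from testis, were listed at most at 0.264 FPKM and at 0. Rpl39, the tunnel protein that Rpl39l resembles, had 37.9, 28.6 and 31.3 FPKM in dLAM and 34.8, 28.1 and 33.7 FPKM in Mono-macrophage, with overlap and a log2 fold change of 0.01 ± 0.13.

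Rps3a1 and Fau, core genes with other names, had log2 fold changes within the range of the members. Rps3a1 had 325, 286 and 293 FPKM in dLAM and 240, 237 and 204 FPKM in Mono-macrophage, with no overlap, and a log2 fold change of 0.41 ± 0.12 (limma, adjusted p = 0.040), a call that was lost when any 1 library was left out. Fau, made as a fusion with a protein like ubiquitin, had a log2 fold change of 0.33 ± 0.20 (limma, adjusted p = 0.26). Of the paralogs outside the pattern, Rpl22l1 had a log2 fold change of 0.17 ± 0.20 beside 0.24 for Rpl22, Rpl7l1 had 0.04 ± 0.09 beside 0.13 for Rpl7, and Rpl36al had -0.26 ± 0.13 beside 0.13 for Rpl36a. No paralog among these passed by limma over all libraries, and Rpl36al did without Mono-macrophage library 3. Of the 12 genes in a list of ribosomal protein genes outside the pattern and their partners, 2 were higher and 0 lower, the second being Rps19bp1, an Rps19-binding protein (log2 fold change 0.88 ± 0.21), which did not pass without dLAM library 1.

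Genes of neighbouring steps in translation were set beside the members through lists made for this comparison, with the same background of 19.9% higher and 10.6% lower. Elongation factors were higher in 5 of 11 (Eef1b2, Eef1d, Eef1g, Gspt1 and Eef2k) and lower in 0, with a median log2 fold change of 0.36. Eef2k, which encodes the kinase that restrains elongation factor Eef2, had the largest, 1.19 ± 0.14 (limma, adjusted p = 0.00074), at 3.48, 3.26 and 2.74 FPKM in dLAM and 0.756, 0.677 and 1.05 FPKM in Mono-macrophage. Eef1g, a subunit of the factor that reloads Eef1a, had 71.5, 76.6 and 65.7 FPKM in dLAM and 33.8, 28.2 and 36.2 FPKM in Mono-macrophage, without overlap (1.10 ± 0.12). Initiation factors were higher in 3 of 35 and lower in 1, with a median of 0.17. Among them Eif4b, which helps unwind mRNA, had 0.67 ± 0.11, and Eif4g2, a scaffold for initiation without a cap, had -0.36 ± 0.09 and did not pass without dLAM library 2 or 3.

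TOP mRNAs that encode no ribosomal protein were higher in 7 of 20 and lower in 1, Vim, which encodes the filament protein vimentin (-0.58 ± 0.12). Their median was 0.33, and 3 of the 7 are elongation factor genes already counted. Among the members with a start in the promoter table, the 12 tested with a TOP start had a median log2 fold change of 0.42 and 5 calls, and the 42 tested without had 0.30 and 10 calls. Genes of mTORC1, La-related proteins and Myc were higher in 6 of 18 and lower in 2, with a median log2 fold change of 0.13. Their summed levels overlapped, at 288 to 296 FPKM in dLAM and 281 to 307 FPKM in Mono-macrophage. Myc, the growth transcription factor, had 6.57, 5.31 and 5.07 FPKM in dLAM and 1.48, 1.497 and 1.16 FPKM in Mono-macrophage, with no overlap and a log2 fold change of 1.48 ± 0.14. Mlst8, an mTORC1 subunit, had -0.55 ± 0.12.

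RNA polymerase I genes were higher in 1 of 12, the rDNA factor Ubtf (0.30 ± 0.09, not passed with any 1 library left out), and lower in 0. Genes for import and chaperones of ribosomal proteins were higher in 3 of 19, with Grwd1, a chaperone of Rpl3, at 1.005 ± 0.15, and lower in 1, the ubiquitin ligase Rnf10 (-0.33 ± 0.09, which passed in the fit without Mono-macrophage library 3 but in no other fit with a library left out). Mitochondrial ribosomal proteins, which build a separate ribosome, were higher in 8 of 76 and lower in 2. Their median was 0.10 against 0.31 for the cytosolic set, with Mrps6 (1.62 ± 0.30) and Mrpl33 (-1.19 ± 0.13) at the ends. Each of these shares except those of the elongation and TOP lists and the mTORC1 list was below the background of 30.5% for both directions together.

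Markers of other cell types and states moved with the groups beside these genes. The macrophage genes Csf1r and Cd68 were present in all libraries, with means of 251 and 140 FPKM in dLAM and 121 and 109 FPKM in Mono-macrophage. Among genes of the sort markers, Adgre1 had means of 58.9 FPKM in dLAM and 38.1 FPKM in Mono-macrophage, and Ly6c2 13.6 and 92.3 FPKM. Ptprc had 47.0 and 53.7 FPKM, and Itgam was low in both groups, at 2.13 and 2.86 FPKM. Ptprc and Itgam were lower in each dLAM library, but neither passed by limma. Counts below are over the listed genes that reached 1 FPKM in a library of each group, and summed levels are over the whole list. T cell markers were higher in dLAM in 14 of 14, with a summed level of 262 to 323 FPKM in dLAM and 8.81 to 45.4 FPKM in Mono-macrophage. B and plasma cell markers were higher in 4 of 4 (217 to 864 FPKM in dLAM and 13.8 to 68.0 FPKM in Mono-macrophage), dendritic cell markers in 4 of 7 (276 to 359 and 83.6 to 178 FPKM) and the NK cell marker with such values in 1 of 1 (10.8 to 19.3 and 1.66 to 4.78 FPKM). Carcinoma markers were higher in 1 of 1 (26.9 to 31.6 FPKM in dLAM and 1.74 to 2.92 FPKM in Mono-macrophage, where Krt19 and Cldn4 were at 0). Mast cell, basophil and eosinophil markers summed to 18.9 to 53.9 FPKM in dLAM and 1.30 to 2.32 FPKM in Mono-macrophage, where Cpa3, Mcpt4 and Fcer1a were at 0. The 1 gene of that list with 1 FPKM in both groups, Siglecf, did not pass.

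Border macrophage markers were higher in 4 of 5 (234 to 252 FPKM in dLAM and 27.0 to 48.1 FPKM in Mono-macrophage, where Folr2 and Timd4 were at 0). Red cell and platelet markers were higher in 2 of 3, at 49.6 to 62.7 FPKM in dLAM and 2.73 to 16.3 FPKM in Mono-macrophage. Most of that sum was Pf4, which is also on the border macrophage list, and without Pf4 it was 9.57 to 10.6 FPKM in dLAM and 0.635 to 4.996 FPKM in Mono-macrophage. Classical monocyte markers were lower in 10 of 10 (1005 to 1344 FPKM in dLAM and 4704 to 6309 FPKM in Mono-macrophage), and cell cycle genes in 15 of 19 (205 to 225 and 462 to 671 FPKM). Neutrophil markers were lower in 6 of 12, at 1033 to 1264 FPKM in dLAM and 1568, 5014 and 8515 FPKM in Mono-macrophage libraries 1, 2 and 3. Library 3, with the highest sum, was the one with the lowest share of ribosomal proteins, and library 1, with the lowest sum, the one with the highest share in its group. This order was not particular to neutrophil markers. Sums of classical monocyte (4704, 5546 and 6309 FPKM), dendritic cell and NK cell markers also rose from library 1 to 3. Carcinoma markers fell (2.92, 2.26 and 1.74 FPKM), and the remaining lists followed neither order. Genes of handling stress were higher in 1 of 12 and lower in 0, with 984 to 1689 FPKM in dLAM and 1049 to 1767 FPKM in Mono-macrophage. The part of these cells and states in the differences of the ribosomal protein genes was not tested.

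The size of the shared difference, but not its sign, depended on how the libraries were scaled. Over all genes, the median log2 fold change was 0.06 as deposited, -0.01 with median-of-ratios scaling, 0.10 on a TPM scale and -0.05 after quantile normalization, which shifted it by -0.11. Relative to that median, the 74 genes had a median of 0.25 as deposited and of 0.23, 0.26 and 0.39 in these settings. Members called higher numbered 20 as deposited (background 19.9%) and 8 with median-of-ratios scaling (background 16.7%). They numbered 21 on the TPM scale (background 20.2%) and 29 after quantile normalization (background 15.9%). Of the 29, 14 were among the 20. Over all genes the calls split into 2249 higher and 1204 lower as deposited, 1891 and 1526 with median-of-ratios scaling, and 1799 and 1702 after quantile normalization.

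**Figure D5:**
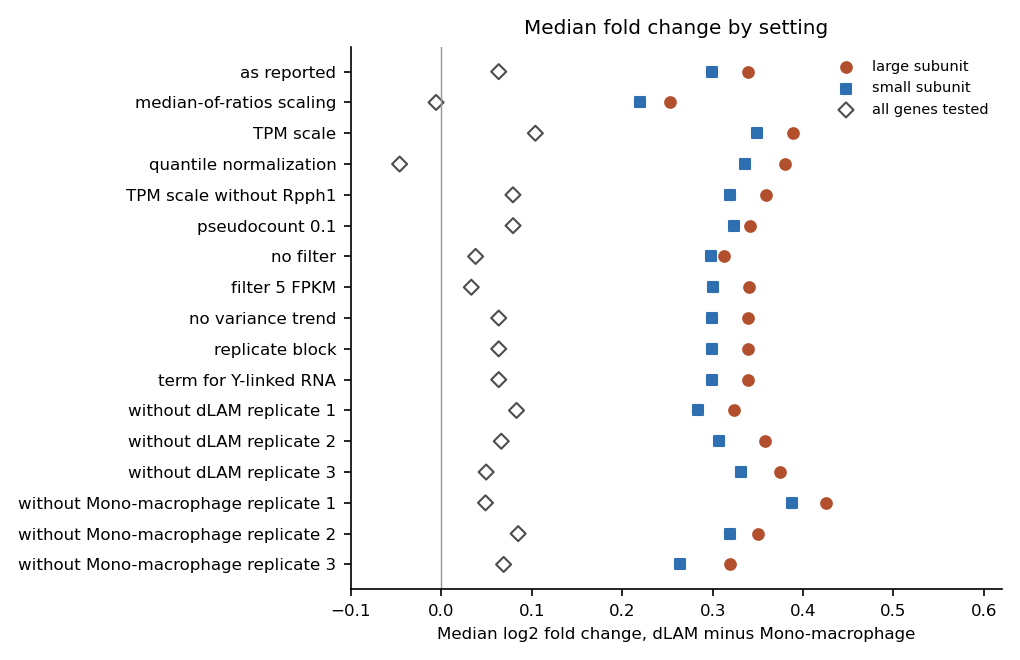
Median log2 fold change, dLAM minus Mono-macrophage, of the large subunit genes (circles), the small subunit genes (squares) and all genes tested (diamonds) in the fit as reported and under 16 alternatives. Both subunits stay between 0.2 and 0.45, to the right of all genes tested, which lie between -0.05 and 0.10, and the large subunit lies to the right of the small in each setting.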

How the data were processed

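The members and gene lists were chosen with earlier results of these data known. The authors deposited 1 table of FPKM, whose 6 columns each matched 1 library by title; the series text speaks of 10 samples, of which 6 were analysed here. Per the submitters' processing notes, FastQC, HISAT2 and featureCounts were used with build mm10; versions, the handling of strand and of multiply matched reads, and gene lengths were not found in the labels or headers. Genes with FPKM of at least 1 in at least 3 libraries (11317) were transformed as log2(FPKM + 1), which understates changes of low genes. They were fitted with a group term and a variance trend in limma 3.58.1 under R 4.3.3, with Benjamini-Hochberg adjustment over all of them. FPKM holds no counts: steps of low values with GENCODE M21 exon lengths gave an estimated 1.48e+07, 1.23e+07 and 1.24e+07 fragments for the dLAM libraries and 1.37e+07, 1.40e+07 and 1.70e+07 for the Mono-macrophage libraries, but 40.6% to 44.3% of low values came out whole within 0.02 reads, so reads were not recovered. By these estimates 17 of the 80 members had under 100 reads in a library, among them 3 of the 20 called.

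The naming rule gave values per library for the 6 called members with the largest and the 6 with the smallest change, for 12 members picked for their roles, and for paralogs with their partners, and in each list named the called genes at both ends. Gene coordinates are those of GENCODE M21 on mm10, 1-based. Symbols of 94.3% of genes matched 1 gene there. Start windows came from the RefSeq promoter table on GRCm38.p6, which held 60 members. Python 3.11.15 with pandas 2.3.3, scipy 1.17.1 and matplotlib 3.10.9 served for tables and plots. Single values of a few genes in the lists are not reported here. Alternatives were other scalings, pseudocounts and filters, no variance trend, a replicate block, a term for Y-linked RNA, and leaving out each library. In Y-linked RNA the libraries of a group differed, with more in dLAM library 3 and Mono-macrophage library 2 than in the others. With the term for it, 23 members were called higher (31.1%, against 21.3% of all genes).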

Additional observations from a re-analysis of the deposited data

How the results depend on the processing

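The 20 members called higher (27%, against 19.9% of all genes) became 8 with median-of-ratios scaling (10.8% against 16.7%). They became 11 of 79 with no filter (13.9% against 13%) and 13 with a replicate block (17.6% against 16.4%). With 1 library left out they became 5 to 25 (6.76% to 33.8%, against 14% to 18.5%). For the large subunit the 14 (31.8%) became 7, 8 and 4 to 16 with median-of-ratios scaling, no filter and 1 library left out. These were 15.9%, 16.7% and 9.09% to 36.4%, beside the same shares of all genes. For the small subunit the 6 (20%) became 1, 3, 3 and 1 to 9 with median-of-ratios scaling, no filter, the replicate block and 1 library left out. These were 3.33%, 9.68%, 10% and 3.33% to 30%. After quantile normalization 11 were called (36.7%, against 15.9% of all genes). None were called lower in any setting, 0 in each. Over all genes 1247 were called higher with a filter of 5 FPKM, which tests 6579 genes, against 2249, and 780 to 1220 lower with 1 library left out, against 1204. The median log2 fold change of the small subunit lay between 0.26 and 0.39 with 1 library left out, highest without Mono-macrophage library 1. The large to small ratio differed by 0.11 as reported, by 0.06 to 0.14 with 1 library left out and by -0.039 without the members at 1000 FPKM or more; the cause was not tested.

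Genes that changed sign had not passed. After quantile normalization Rpsa had -0.0024, Rpl10 -0.0067, Rps27 -0.027 and Rpl36a -0.013. With median-of-ratios scaling Rplp0 had -0.038, Rpl10 -0.078, Rpl39 -0.071 and Rpl7l1 -0.041. With 1 library left out Rpl10 ranged between -0.075 and 0.051, Rpl39 between -0.097 and 0.099, and Rps29 between -0.26 and 0.0047. Of the other values for named genes, 670 kept direction and call, 137 lost the call and 4 gained it.

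Deviations of same-numbered libraries from their group means correlated at 0.19, -0.15 and -0.09 across genes. With 3 libraries a group, these values cannot decide whether same-numbered libraries came from the same mice. With 3 libraries a group, low listed levels and unknown handling of reads with several matches limit the members with copies.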
